A study of Mus musculus with 16 samples.

Results

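The 45 genes described here encode the proteins that license replication origins, fire them and copy the DNA at the fork, with the MCM helicase left out. They were chosen by name: the 6 subunits of the origin recognition complex with Cdc6, Cdt1 and Gmnn, the firing factors Cdc45, Gins1 to Gins4, Dbf4 and Cdc7, the replicative polymerases and primase, the clamp and its loader, the lagging-strand and single-strand-binding proteins, the chromatin-copying factors and the fork protection complex. All 45 matched 1 row each among the 29806 gene rows of the deposited tables, and all 45 passed the filter on low counts that left 14179 genes for testing. RNA came from 2 sorted populations of mouse bone marrow, haematopoietic stem cells (HSC) and the Fcgr-negative fraction of MPP3, a myeloid-biased multipotent progenitor. Each population was taken from WT mice, called control here, and from mice of the genotype Jak2V617F, called mutant here, with 4 libraries in each of the 4 groups and 16 in all. Jak2V617F is a kinase allele with constant signalling activity that is found in myeloproliferative neoplasms. The sources used here do not state the strain and age of the mice, the copy number of the allele, its promoter or the gates of the sort, and gene tables carry no alleles, so they cannot show the mutation itself. The replicate number is the batch of the labels, so that batch 1 holds replicate 1 of each group. Nothing in the labels says that the replicates of a group came from separate animals, so p-values measure the spread between these libraries, which may be partly technical.

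A cell licenses its origins in G1, when the origin recognition complex, Cdc6 and Cdt1 load the MCM helicase onto DNA, and geminin (Gmnn) blocks Cdt1 afterwards so that no origin is licensed again in the same cycle. In S phase the kinase Cdc7 with its activator Dbf4 and the factors Cdc45 and GINS turn the loaded helicase into a moving fork, on which primase and polymerases alpha, delta and epsilon copy the strands, the clamp PCNA tethers them, and chromatin is rebuilt behind. Adult stem cells of the marrow rest in G0 most of the time, while the progenitors below them divide more often, and many of these genes are known targets of E2F factors whose transcripts rise towards S phase.

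The libraries held between 33108500 and 41230910 estimated counts on gene rows, with 14439 to 16522 genes detected. Estimated counts of the 45 genes ran from 298 for Dbf4 in its lowest library to 30659 for Dnmt1 in its highest, so that none of them was limited by a handful of reads. The labels were checked against marker genes. In control animals the 9 HSC markers summed to between 1985 and 2271 CPM (counts scaled by the TMM-adjusted library size) in HSC and to between 1128 and 1579 in MPP3, and the 8 early myeloid markers to between 659 and 859 CPM in HSC and to between 4417 and 7010 in MPP3. In mutant animals the sums of the HSC markers overlapped, with HSC libraries from 1362 to 1636 CPM and MPP3 libraries from 1038 to 1383. The sums of the HSC markers thus separated the 2 populations in control animals only. In mutant mice Slamf1, Mllt3, Mecom, Ly6a and Hoxb5 were nonetheless higher in HSC than in MPP3 (edgeR adjusted p under 0.05). Slamf1 was at means of 37.6 against 2.44 CPM. Procr, Hlf, Fgd5 and Kit did not pass that test. Kit, the highest of these markers, did not pass edgeR's test of MPP3 against HSC in control or mutant mice (adjusted p = 0.0563 and 0.467). No library of HSC reached the early myeloid level of any library of MPP3. The mutant HSC libraries 1 and 4 were the most alike of any pair within a group (r of log2 CPM 0.971), but they differed by far more than sampling noise and were counted as 2 samples.

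Of the 45 genes, 34 were higher and 0 lower in mutant than in control HSC by edgeR's quasi-likelihood test at an adjusted p under 0.05, against 4.56% of the 14179 genes tested that were higher. The median log2 fold change of the 45 genes was 0.67, and 44 of them were above 0, while the median over all genes tested was -0.06 and 44.0% of those were above 0. Summed over the 45 genes, CPM was 4242 ± 292 (SD, n = 4) in control HSC, with libraries between 3878 and 4589, and 6811 ± 693 (SD, n = 4) in mutant HSC, with libraries between 5826 and 7432. The 4 libraries of 1 group did not overlap with those of the other for 34 genes, each higher in the mutant, against 7.26% of all genes tested. In bulk RNA, a larger share of cells in S phase and more of the transcripts per cell cannot be told apart.

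**Figure D1:**
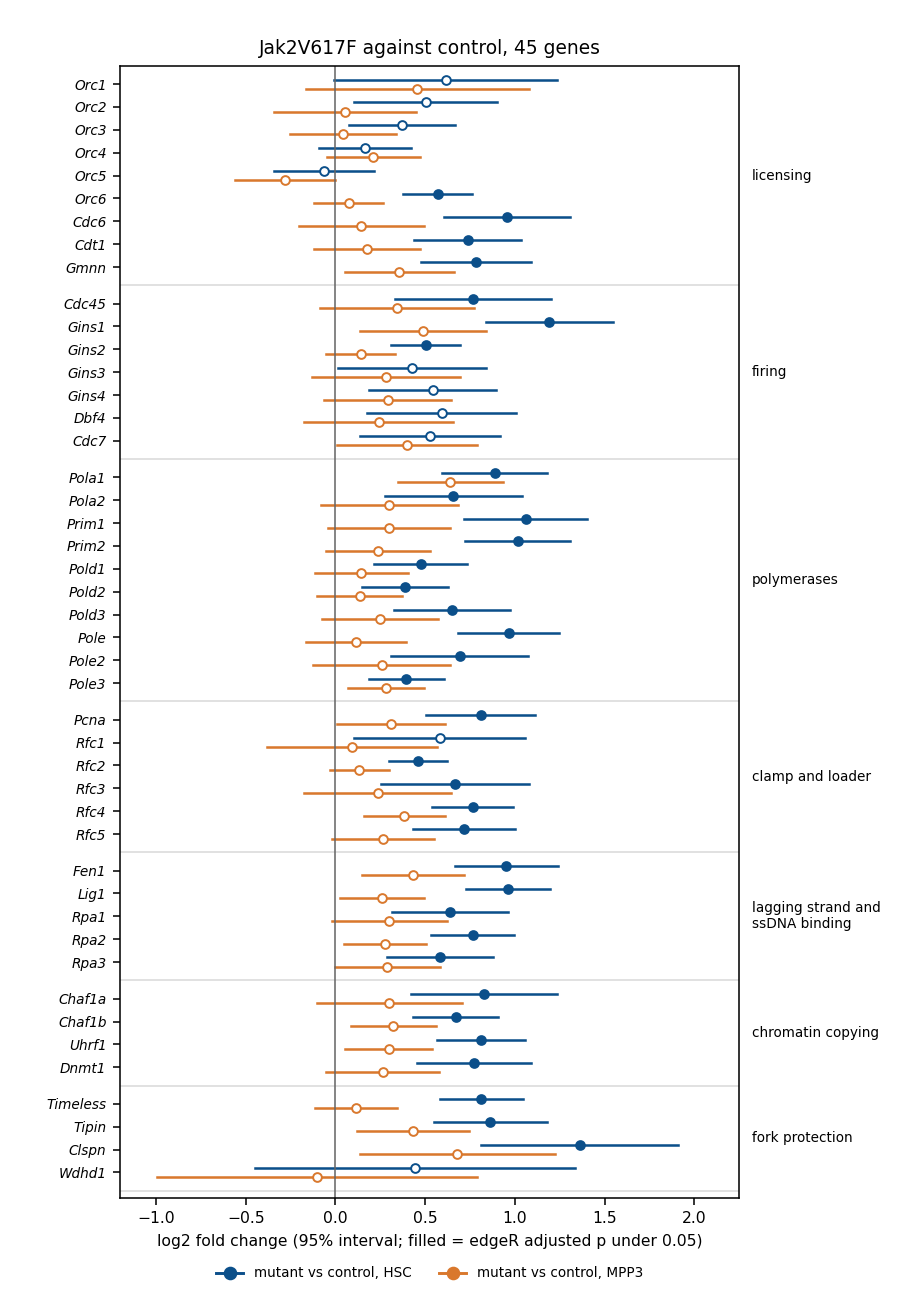
Log2 fold change of mutant against control libraries (points) with its 95% interval (lines) for each of the 45 genes, grouped by role, in HSC and in MPP3; filled points have an edgeR adjusted p under 0.05. The HSC points are filled for 34 genes, from 0.39 (Pold2) to 1.36 (Clspn), and no MPP3 point is filled.

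Promoter sequence was not used in choosing the genes by name. Many of them are known E2F targets, however, so a high share of E2F cores was likely from the choice alone. RefSeq promoter windows (GRCm38.p6, 250 bases before to 50 after each start) were at hand for 37 of the 45 genes, and 26 of these, 70.3%, held at least 1 E2F core, searched on both strands. The core was taken as the letters TTGGCGC, the letters TTGCCGC, the letters TTCGCGC or the letters TTCCCGC. Among all 32851 windows 9.57% held it, as did 19.0% of the 10395 tested genes with a window. Of the genes that passed the test in HSC 19 of 27 held the core, and of those that did not 7 of 10. CCAAT was in the windows of 19 of the 37 genes (51.4%, against 42.9% of tested genes) and the letters TTTGAA of the cell cycle homology region in 7 (18.9%, against 14.5%). The stretches below are 100 bases each, written in the direction of the gene, with the core in capitals. They show a licensing factor, a primase subunit, a lagging-strand nuclease and a chromatin factor that rose, each with its core before the start site. Cdc7 and Wdhd1, not printed, also held a core before the start site and did not pass the test in HSC (edgeR adjusted p = 0.0987 and 0.616).
Cdc6, chr11:98907966-98908065, plus strand: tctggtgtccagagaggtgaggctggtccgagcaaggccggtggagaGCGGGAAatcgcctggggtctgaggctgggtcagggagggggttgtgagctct
Prim1, chr10:128015115-128015214, plus strand: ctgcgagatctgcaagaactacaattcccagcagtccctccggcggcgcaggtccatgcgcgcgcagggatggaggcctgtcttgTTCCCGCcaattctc
Fen1, chr19:10203922-10204021, minus strand: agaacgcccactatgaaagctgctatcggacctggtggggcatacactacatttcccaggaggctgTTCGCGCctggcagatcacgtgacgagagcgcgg
Uhrf1, chr17:56303237-56303336, plus strand: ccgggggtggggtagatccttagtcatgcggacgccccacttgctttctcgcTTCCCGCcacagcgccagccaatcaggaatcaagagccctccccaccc
In Cdc6 the core lies on the opposite strand and so reads GCGGGAA. Pcna rose although these letters are not in its window, and Orc5, whose level did not pass the test in any comparison, lacks them too.
Pcna, chr2:132253181-132253280, minus strand: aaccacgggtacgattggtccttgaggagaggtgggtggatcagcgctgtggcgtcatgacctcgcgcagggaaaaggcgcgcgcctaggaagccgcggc
Orc5, chr5:22550339-22550438, minus strand: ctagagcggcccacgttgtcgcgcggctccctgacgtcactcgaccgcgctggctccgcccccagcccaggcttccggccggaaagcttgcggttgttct
A match in these windows is a string of letters and not evidence of binding, and the other genes without the core were Cdc45, Dbf4, Orc2, Orc6, Pola2, Pold2, Rfc5, Rpa1 and Timeless.

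Among the 9 licensing genes, Cdc6, Cdt1, Gmnn and Orc6 rose in mutant HSC and Orc1 to Orc5 did not pass the test. Cdc6, the ATPase that joins the recognition complex before the helicase is loaded (ENSMUSG00000017499, chromosome 11, 98907801 to 98923940, GRCm38), stood at 48.8, 65.4, 51.6 and 58.1 CPM in control HSC and at 132, 96.6, 76.5 and 129 CPM in mutant HSC. Every mutant library was above every control library, with libraries 1 and 4 highest, and the log2 fold change was 0.96 ± 0.17 (SE, edgeR adjusted p = 0.00253). Cdt1, the loading factor destroyed at the start of S phase, was at 59.8, 46.5, 49.3 and 42.3 CPM in control HSC and at 71.6, 95.3, 84.8 and 78.2 CPM in mutant HSC, a log2 fold change of 0.74 ± 0.14 (SE, adjusted p = 0.0046). Gmnn, which encodes the inhibitor of Cdt1, rose by nearly the same amount, from 47.1, 39.7, 45.7 and 33.6 CPM to 71.0, 71.0, 69.1 and 74.8 CPM, with a log2 fold change of 0.78 ± 0.15 (SE, adjusted p = 0.0037). The loading factor and its inhibitor were thus both higher, with no overlap of libraries for either.

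Of the 6 subunits of the origin recognition complex, 1 passed the test, and their differences from each other were not tested. Orc6, the smallest subunit, was at 62.4, 58.9, 65.3 and 52.1 CPM in control HSC and at 87.7, 88.7, 86.3 and 91.6 CPM in mutant HSC, which gave a log2 fold change of 0.57 ± 0.09 (SE, adjusted p = 0.00144). Orc4 was at 37.8, 37.0, 38.5 and 33.4 CPM in control HSC and at 40.0, 46.0, 41.9 and 36.4 CPM in mutant HSC, overlapping groups whose log2 difference was 0.16 ± 0.12 (SE, adjusted p = 0.49). Orc5 was at 53.0, 74.6, 51.0 and 68.7 CPM against 57.1, 51.6, 66.7 and 61.2 CPM, a log2 difference of -0.06 ± 0.13 (SE, adjusted p = 0.855) with a 95% interval from -0.34 to 0.21. It was the single value below 0 among the 45. Orc1, the subunit whose protein cycles in mammalian cells, had the widest error of the complex, with libraries from 8.82 to 16.8 CPM in control HSC and from 8.47 to 25.8 CPM in mutant HSC, and its log2 difference of 0.61 ± 0.29 (SE) had an adjusted p of 0.239. Orc2 and Orc3 had log2 differences of 0.50 and 0.37 with adjusted p of 0.12 and 0.123. Per unit of length, Orc1 was the lowest subunit in control HSC at 6.69 ± 2.49 TPM (SD, n = 4) and Orc6 the highest at 58.9 ± 4.87 TPM. About 29.8% of the exon bases of Orc2 overlap Nif3l1 on the opposite strand, and without a stated strand protocol reads of the 2 genes cannot be told apart.

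Of the 7 firing genes, Cdc45, Gins1 and Gins2 rose. Gins1, a subunit of the GINS ring that bridges the helicase to polymerase epsilon (chromosome 2, 150905400 to 150931280), was at 17.0, 14.6, 12.6 and 12.0 CPM in control HSC and at 33.0, 34.7, 25.8 and 34.9 CPM in mutant HSC, a log2 fold change of 1.19 ± 0.17 (SE, adjusted p = 0.000624). Every mutant library was above every control library, and library 3 was the lowest of the mutant ones. Gins2 was at 82.9, 85.0, 106 and 81.1 CPM in control HSC and at 118, 127, 121 and 136 CPM in mutant HSC, a log2 fold change of 0.50 ± 0.09 (SE, adjusted p = 0.0032). With offsets for effective length this value was 0.92 (adjusted p = 0.000604), and 67.3% of the exon bases of Gins2 overlap Gse1 on the opposite strand. Gins3 was at 15.3, 17.2, 16.4 and 21.1 CPM in control HSC and at 30.5, 25.2, 19.1 and 19.1 CPM in mutant HSC, where the groups overlapped and the log2 difference of 0.42 ± 0.20 (SE) had an adjusted p of 0.216. Gins4 did not overlap between groups, yet its adjusted p was 0.0622 at a log2 difference of 0.54 ± 0.17 (SE). The 4 subunits, which sit in equal parts in the protein ring, ran from 0.42 to 1.19 on the log2 scale. Cdc45, the helicase cofactor, rose by 0.77 ± 0.20 (SE, adjusted p = 0.0305). The kinase gene Cdc7 and its activator gene Dbf4 had log2 differences of 0.53 ± 0.18 (SE, adjusted p = 0.0987) and 0.59 ± 0.20 (SE, adjusted p = 0.0795).

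All 10 polymerase and primase genes rose in mutant HSC, from 0.39 for Pold2 to 1.06 for Prim1 on the log2 scale. Prim2, the large primase subunit (chromosome 1, 33453810 to 33669795), was at 52.8, 43.4, 44.2 and 55.6 CPM in control HSC and at 115, 98.9, 77.3 and 104 CPM in mutant HSC, a log2 fold change of 1.02 ± 0.14 (SE, adjusted p = 0.00052). Prim1, the catalytic primase subunit, rose by 1.06 ± 0.16 (SE, adjusted p = 0.00104). Pola1, the catalytic subunit of polymerase alpha that extends the primer, was at 49.6, 54.9, 43.8 and 43.3 CPM against 94.9, 93.6, 64.0 and 102 CPM, a log2 fold change of 0.89 ± 0.14 (SE, adjusted p = 0.00122). Library 3 was the lowest of the mutant libraries for each of Prim1, Prim2 and Pola1. Pold2, a small subunit of the lagging-strand polymerase delta, was at 210, 193, 250 and 216 CPM in control HSC and at 267, 267, 303 and 300 CPM in mutant HSC, a log2 fold change of 0.39 ± 0.11 (SE, adjusted p = 0.0457).

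Polymerase epsilon copies the leading strand, and its catalytic gene Pole depended on how gene length was treated. Pole was at 51.7, 55.7, 61.3 and 49.2 CPM in control HSC and at 110, 110, 98.6 and 107 CPM in mutant HSC, a log2 fold change of 0.97 ± 0.13 (SE, adjusted p = 0.000542). The lowest mutant library was well above the highest control library on that scale. In TPM, which divides by the effective length that the authors' Salmon run assigned in each library, Pole went from 21.6 ± 5.78 to 28.7 ± 2.07 (SD, n = 4), and with effective-length offsets the log2 difference was 0.42 with an adjusted p of 0.0801. Its call therefore holds for counts per gene and not for counts per length. Pole2 and Pole3, smaller subunits of the same enzyme, rose by 0.69 and 0.39 (adjusted p = 0.0274 and 0.0227).

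The sliding clamp and 4 of the 5 loader subunits rose. Pcna, the ring that holds polymerases on DNA (ENSMUSG00000027342, chromosome 2, 132249162 to 132253314), was at 182, 159, 148 and 144 CPM in control HSC and at 348, 248, 225 and 287 CPM in mutant HSC, a log2 fold change of 0.81 ± 0.14 (SE, adjusted p = 0.00291). The 2 groups did not overlap, and library 1 was the highest in each. The pseudogene Pcna-ps2 held between 0.108 and 0.747 CPM and Pcna-ps1 held 0 in every library. Rfc4 was at 79.0, 80.1, 81.7 and 67.6 CPM against 145, 124, 119 and 136 CPM, a log2 fold change of 0.77 ± 0.11 (SE, adjusted p = 0.000568). Rfc2 was at 326, 310, 372 and 336 CPM against 419, 479, 464 and 488 CPM, a log2 fold change of 0.46 ± 0.08 (SE, adjusted p = 0.00188). Rfc1, the large subunit of the loader, was at 51.9, 41.7, 31.9 and 60.1 CPM in control HSC and at 88.9, 84.3, 44.9 and 59.7 CPM in mutant HSC, so that the groups overlapped at a log2 difference of 0.58 ± 0.23 (SE, adjusted p = 0.133). The 5 subunits are known to form 1 complex, but their transcripts in control HSC ran from 12.5 ± 3.55 TPM for Rfc1 to 274 ± 22.7 TPM for Rfc2 (SD, n = 4). Of the exon bases of Rfc2 and Rfc4, 15.1% and 12.7% overlap Lat2 and Eif4a2 on the opposite strand.

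All 5 genes for finishing the lagging strand and binding single strands rose. Lig1, the ligase that seals Okazaki fragments (chromosome 7, 13277283 to 13311433), had the smallest adjusted p of the 45 genes. It was at 185, 152, 194 and 173 CPM in control HSC and at 298, 371, 338 and 366 CPM in mutant HSC, a log2 fold change of 0.96 ± 0.11 (SE, adjusted p = 0.000163). Fen1, the flap nuclease that trims the fragments before ligation, was at 179, 190, 203 and 192 CPM against 427, 354, 257 and 440 CPM, a log2 fold change of 0.95 ± 0.14 (SE, adjusted p = 0.000624). Its control libraries lay close together while the mutant libraries spread widely, with library 3 lowest. Of the exon bases of Fen1, 78.8% overlap the antisense gene Gm10143, which has no row in the tables. Rpa3, the smallest subunit of the single-strand-binding protein RPA, was at 25.7, 32.4, 22.7 and 23.0 CPM against 39.7, 43.2, 33.8 and 38.6 CPM, a log2 fold change of 0.58 ± 0.14 (SE, adjusted p = 0.0175). Rpa1 and Rpa2, the other subunits of that trimer, rose by 0.64 and 0.76.

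All 4 chromatin-copying genes rose, between 0.67 and 0.83 on the log2 scale. Uhrf1, which recognises hemimethylated DNA behind the fork and brings in the methyltransferase Dnmt1, was at 262, 214, 277 and 213 CPM in control HSC and at 408, 451, 349 and 489 CPM in mutant HSC, a log2 fold change of 0.81 ± 0.12 (SE, adjusted p = 0.000624). Dnmt1 itself rose by 0.77 ± 0.15 (SE, adjusted p = 0.00514), and its mutant library 3, at 433 CPM, lay close to the highest control library at 424 CPM. Chaf1b, the middle subunit of the histone chaperone CAF-1, was at 143, 137, 139 and 167 CPM against 249, 228, 200 and 253 CPM, a log2 fold change of 0.67 ± 0.11 (SE, adjusted p = 0.00191). Chaf1a, its large subunit, was at 22.1, 13.8, 16.03 and 12.5 CPM against 27.2, 35.3, 22.9 and 28.9 CPM, a log2 fold change of 0.83 ± 0.19 (SE, adjusted p = 0.0142). Of its exon bases, 52.5% overlap Ubxn6 on the opposite strand.

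Of the 4 fork protection genes, Timeless, Tipin and Clspn rose. Clspn, the adaptor that carries the checkpoint signal at stalled forks, had the largest change of the 45 genes, from 18.5, 18.3, 17.1 and 7.99 CPM in control HSC to 44.1, 45.2, 34.2 and 35.7 CPM in mutant HSC, a log2 fold change of 1.36 ± 0.26 (SE, adjusted p = 0.0046). Its lowest value, control library 4, stood far below the other 3. Timeless, the partner of Tipin in the complex that keeps polymerases and helicase together, was at 94.0, 106, 115 and 115 CPM against 170, 197, 187 and 203 CPM, a log2 fold change of 0.81 ± 0.11 (SE, adjusted p = 0.000448), and Tipin was at 90.4, 72.9, 76.3 and 89.0 CPM against 183, 135, 109 and 170 CPM, a log2 fold change of 0.86 ± 0.15 (SE, adjusted p = 0.00246). Both partners rose with no overlap of libraries. Wdhd1, which ties polymerase alpha to the helicase, had the widest scatter of the 45 genes, 59.9, 13.5, 54.6 and 50.3 CPM in control HSC and 89.8, 79.4, 20.2 and 53.4 CPM in mutant HSC. Its log2 difference of 0.45 had a 95% interval from -0.45 to 1.34 (adjusted p = 0.616).

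**Figure D2:**
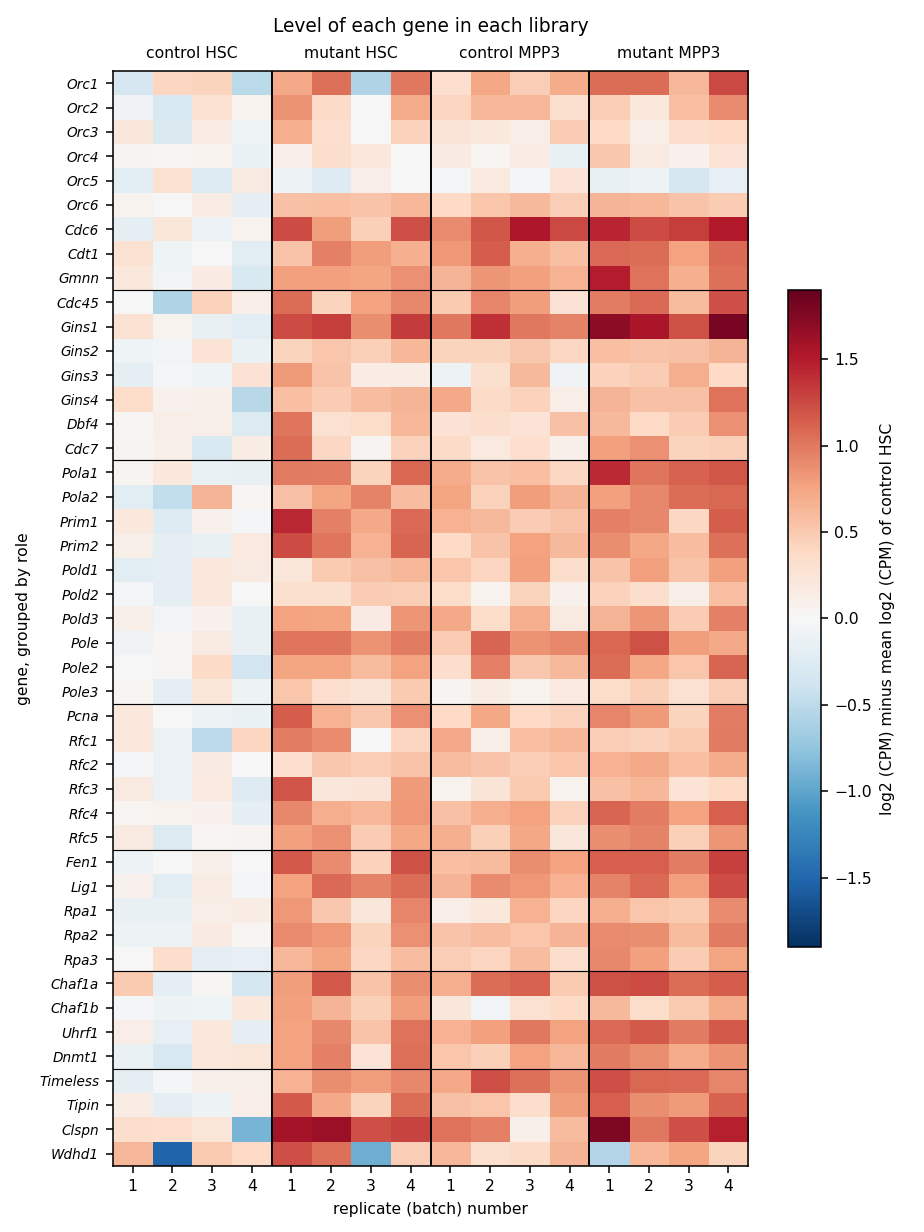
Log2 CPM of each of the 45 genes (rows, by role) in each of the 16 libraries (columns, by group and replicate), as the difference from the mean of the control HSC libraries. The control HSC columns are the palest, mutant library 3 is the palest mutant column in each cell type, and Orc4 and Orc5 change little across the row.

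By batch, the median over the 45 genes of the mutant minus control log2 difference in HSC was 0.80, 0.74, 0.36 and 0.84 in batches 1 to 4, and 38 genes were higher in the mutant in 4 of 4 batches. For the 34 genes whose groups did not overlap this had to be so, and it is not separate evidence. The share of all genes tested that were higher in 4 of 4 batches was not counted. Mutant library 3 had the lowest summed level of the 45 genes among the mutant libraries of HSC, at 5826 CPM. Of the 34 calls, 23 stood when any library was left out. The exceptions, with the adjusted p without that library, were Chaf1a (0.0501 without control HSC library 4), Rpa3 (up to 0.0562 without control 3 or 4), Pold3 (up to 0.0518 without control 4 or mutant 1), Rpa1 (up to 0.0591 without control 2 or mutant 1 or 4), Pold1 (up to 0.0828 without control 1 or 2 or mutant 4) and Pole3 (up to 0.0761 without control 2 or 4 or mutant 1 or 4). The call of Cdc45 was lost without control 1, 2 or 4 or mutant 1 or 4 (up to 0.0991), that of Pole2 without control 2 or 4 or mutant 1, 2 or 4 (up to 0.086), and that of Pola2 without control 1, 2 or 4 or mutant 1, 2 or 3 (up to 0.105). Pold2 lost it without control 1, 2 or 4 or mutant 1, 3 or 4 (up to 0.127). Rfc3 lost it without control HSC 2, 3 or 4, control MPP3 4 or mutant HSC 1 or 4 (up to 0.179), and also with the batch as a replicate block (0.0529). With mutant HSC libraries 1 and 4 both left out, a setting chosen after their likeness was seen, 17 of the 34 genes were called, against 1.77% of the genes tested in that fit, at a median log2 difference of 0.57 over the 45.

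Other measures moved with the mutant HSC group, and their part in the result was not tested. The 9 HSC markers summed to between 1362 and 1636 CPM in mutant HSC, below the 1985 to 2271 CPM of control HSC, with all 9 above 1 CPM on average in both. Procr, Hlf, Mllt3 and Fgd5 were lower by edgeR's test (adjusted p under 0.05), while Slamf1, Mecom, Hoxb5, Ly6a and Kit did not pass it. Kit, the largest part of these sums, was at means of 973 against 1255 CPM, and Ly6a was at 108 against 100 CPM. The 5 megakaryocyte markers summed to between 852 and 1270 CPM against 570 and 783, with Pf4, a platelet chemokine, at means of 288 against 136 CPM. The 5 T and NK cell markers summed to between 136 and 174 CPM against 64.4 and 94.0, most of it Nkg7, while the T-cell gene Cd3e was at 0 in every HSC library. Klrb1c of the same list had the lower mean in mutant HSC, 5.32 against 14.2 CPM (edgeR adjusted p = 0.354), and Cd8a was at 0.438 against 0.459 CPM. The share of mitochondrial counts was 0.924 to 1.37% in mutant HSC against 1.45 to 2.03% in control HSC. Summed markers of neutrophils (2.01 to 44.9 against 19.7 to 64.9 CPM), erythroid cells (65.0 to 203 against 83.3 to 289 CPM) and the 8 early myeloid genes (574 to 745 against 659 to 859 CPM) overlapped between the groups. Within the early myeloid list, Cd48 was higher in mutant HSC, at means of 6.74 against 2.50 CPM (edgeR adjusted p = 0.000763). Prtn3 was lower, at 218 against 349 CPM (edgeR adjusted p = 0.0193), and the rest of that list did not pass the test.

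The other genes of the pathway were taken from lists written with results of these data known, so their counts are descriptions and not separate evidence. Of 25 further replication genes, 13 rose and 0 fell in mutant HSC, at a median log2 fold change of 0.73. Over all genes tested, 4.56% were higher in mutant HSC and the median was -0.06. Hells, a chromatin remodeller, rose by 1.36 and Pclaf, a PCNA partner, by 1.18, while Pold4, the small subunit that completes polymerase delta, was at -0.06 and Pole4 did not pass the test either. All 8 genes of the MCM list rose at a median of 0.86, from Mcmbp at 0.41 to Mcm10 at 1.45. All 10 division genes rose at a median of 0.99. In MPP3 none of these 3 lists held a called gene, against 0.0635% of genes tested. Their medians were 0.21, 0.30 and 0.37, beside -0.02 over all genes tested.

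In MPP3, 0 of the 45 genes passed edgeR's test for a difference between mutant and control, against 0.0635% of genes tested (9 genes). At an unadjusted p under 0.05 there were 14 that were higher and 1 that was lower, Orc5, against 6.31% of all genes tested that were higher and 7.52% that were lower. The median log2 difference was 0.26, with 43 of 45 above 0, beside -0.02 over all genes tested. The summed level of the 45 genes in CPM was 6171 ± 313 for control MPP3 and 7318 ± 554 for mutant MPP3 (SD, n = 4), with libraries from 5955 to 6632 and from 6553 to 7868, so that the ranges overlapped. Intervals of the single genes reached up to 1.22 (Clspn) and down to -0.995 (Wdhd1), and these data do not show that the genes were alike in the 2 groups. DESeq2 called 2 of the 45, where it called 2.74% of all genes tested (388 genes), and limma-voom called 0.

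Pola1 came nearest to the threshold in MPP3. It was at 77.5, 69.2, 70.5 and 62.6 CPM in control MPP3 and at 128, 96.3, 104 and 108 CPM in mutant MPP3, a log2 difference of 0.64 ± 0.14 (SE) with an adjusted p of 0.0825. The groups did not overlap. With the batch as a replicate block its adjusted p was 0.0471, and DESeq2 gave 0.00316. It also passed the test without mutant HSC library 3 or without mutant MPP3 library 3. Rfc4 was at 113, 124, 130 and 105 CPM against 166, 151, 130 and 169 CPM, a log2 difference of 0.38 ± 0.11 (SE, adjusted p = 0.137 by edgeR and 0.036 by DESeq2). Groups did not overlap for 7 genes that were higher in the mutant, Pola1, Rfc4, Gins2, Pole3, Fen1, Tipin and Cdc7, against 3.65% of genes tested, and for 1 that was lower, Orc5, against 3.48%.

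Orc5 was at 59.6, 69.4, 60.3 and 72.9 CPM in control MPP3 and at 55.4, 57.0, 49.0 and 54.7 CPM in mutant MPP3. It was lower in 4 of 4 batches, as groups without overlap must be. Its log2 difference of -0.28 ± 0.13 (SE) had an adjusted p of 0.36. Cdc6 was at 104, 125, 161 and 132 CPM against 152, 131, 138 and 158 CPM, overlapping groups with a log2 difference of 0.15 ± 0.16 (SE, adjusted p = 0.78). Cdt1 was at 86.9, 109, 78.2 and 72.9 CPM against 103, 103, 83.0 and 103 CPM and Gmnn at 64.2, 73.9, 70.9 and 65.4 CPM against 116, 83.9, 66.0 and 85.4 CPM, and the groups overlapped for both. Pcna was at 205, 262, 204 and 213 CPM against 298, 277, 212 and 310 CPM, higher in 4 of 4 batches at 0.31 ± 0.14 (SE, adjusted p = 0.345). By batch, the median over the 45 genes was 0.41, 0.20, 0.003 and 0.42, and in batch 3 only 23 of 45 genes were above 0. The 6 erythroid markers summed to between 41.5 and 236 CPM in mutant MPP3 against 385 and 768 in control MPP3, and the 5 B cell markers to between 97.2 and 169 against 163 and 385, and their part in these values was not tested.

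The mutant difference in MPP3 minus that in HSC was tested directly. It was below 0 for 44 of the 45 genes at a median of -0.43, and 0 of 45 passed the adjusted threshold, against 0.0423% of genes tested (6 genes). At an unadjusted p under 0.05 there were 19, all below 0, against 3.73% of all genes tested. The lowest adjusted p belonged to Pole (-0.85 ± 0.19, SE) and Timeless (-0.70 ± 0.15), both at 0.247, and to Lig1 (-0.70 ± 0.16) at 0.269. DESeq2 called 5 of the 45, Orc6, Prim2, Pole, Lig1 and Timeless, at adjusted p from 0.00742 for Timeless to 0.0469 for Orc6, where it called 0.543% of all genes tested (77 genes), and limma-voom called 0. With effective-length offsets the value of Pole was -0.52 (adjusted p = 0.548). The log2 difference was thus smaller in MPP3 than in HSC for 44 genes, with no single gene past the threshold.

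In control mice, 27 of the 45 genes were higher and 0 lower in MPP3 than in HSC, against 6.67% of all genes tested that were higher. All 45 values were above 0, at a median log2 fold change of 0.52 beside -0.01 over all genes, and libraries did not overlap for 27 genes, against 9.25% of genes tested. Cdc6 had the largest rise, 1.22 ± 0.17 (SE, adjusted p = 8.97e-05), from 48.8 to 65.4 CPM in HSC to between 104 and 161 CPM in MPP3. Cdt1 rose by 0.81 ± 0.14 (SE, adjusted p = 0.00088), Gmnn by 0.72 ± 0.15 (SE, adjusted p = 0.00273) and Orc6 by 0.50 ± 0.09 (SE, adjusted p = 0.00142), while Orc1 to Orc5 did not pass the test.

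Gins1 rose by 1.08 ± 0.17 (SE, adjusted p = 0.00031), with MPP3 libraries at 28.0, 36.4, 27.8 and 26.9 CPM. Timeless had the smallest adjusted p of the 45, 1.31e-05, at 0.97 ± 0.11 (SE), with MPP3 libraries at 177, 249, 221 and 194 CPM, each above every control HSC library. Pole rose by 0.85 ± 0.13 (SE, adjusted p = 0.000328), and of the 10 polymerase genes 8 rose. Of the clamp and loader genes 4 of 6 rose, of the lagging-strand genes 4 of 5, of the chromatin genes 3 of 4, of the fork protection genes 2 of 4 and of the firing genes 2 of 7. The smallest differences were those of Orc4 (0.05 ± 0.12, SE), Orc5 (0.08 ± 0.13) and Pole3 (0.10 ± 0.10). Orc4 was at 40.7, 37.6, 40.5 and 33.4 CPM and Pole3, a histone-fold subunit of polymerase epsilon, at 99.0, 105, 99.6 and 108 CPM in control MPP3, where control HSC had 33.4 to 38.5 and 84.1 to 112 CPM, so that the groups overlapped for both.

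**Figure D3:**
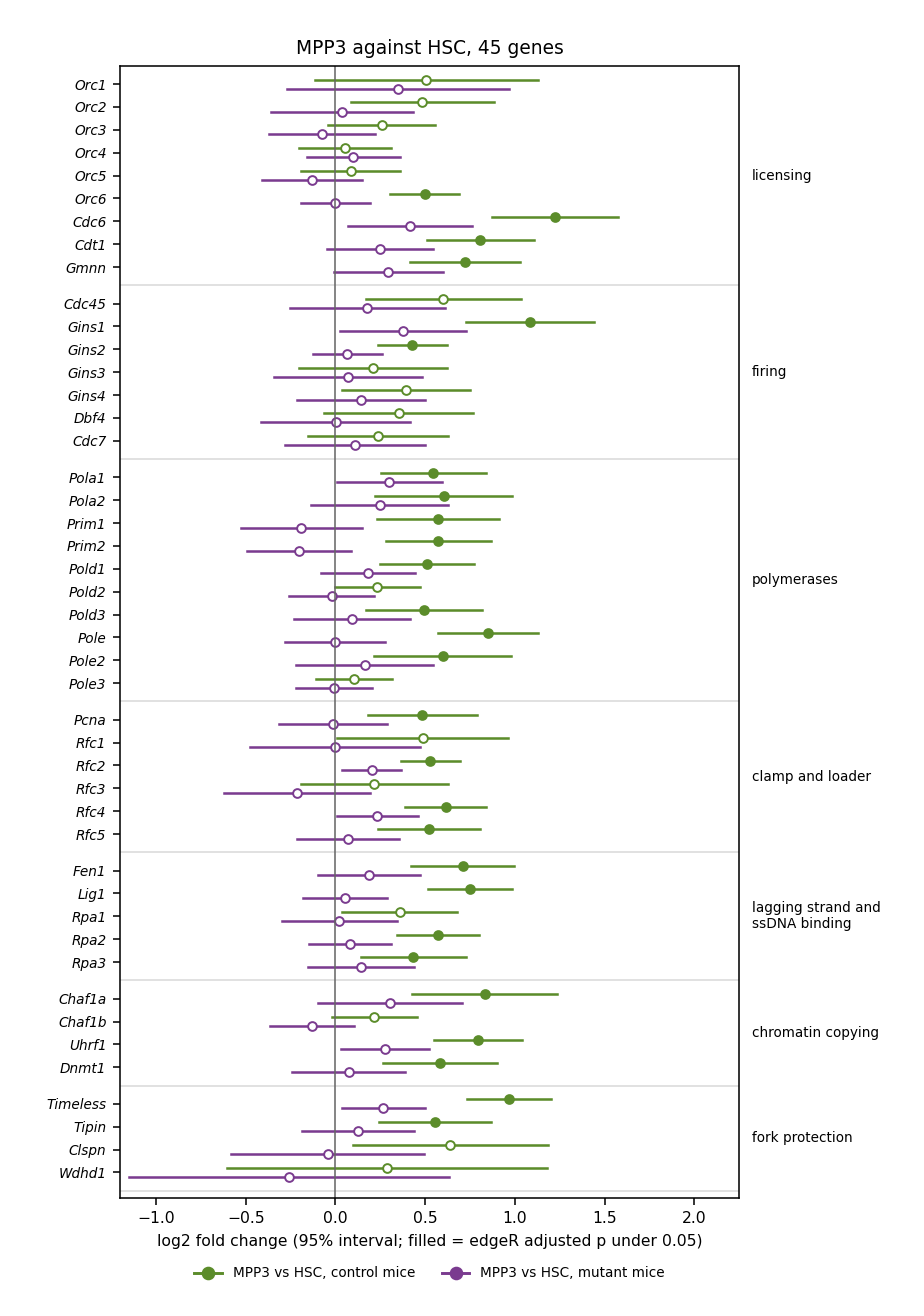
Log2 fold change of MPP3 against HSC (points) with its 95% interval (lines) for each of the 45 genes, by role, in control and in mutant mice; filled points have an edgeR adjusted p under 0.05. The control points are filled for 27 genes, up to 1.22 (Cdc6), and no mutant point is filled.

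Of the 27 calls in control mice, 17 stood when any library was left out. Without 1 library, the call was lost for Pola1 (0.051 without control MPP3 library 1), Dnmt1 (up to 0.0584 without control HSC 1 or 2 or control MPP3 3), Rfc5 (up to 0.0609 without control HSC 2 or control MPP3 1 or 3), Tipin (up to 0.0649 without control HSC 2 or 3 or control MPP3 4) and Prim1 (up to 0.0885 without control HSC 2 or 4 or control MPP3 1 or 2). Pola2 lost it without control HSC 1, 2 or 4 or control MPP3 1, 3 or 4 (up to 0.111), and Pcna without control HSC 2, 3 or 4, control MPP3 1, 2 or 4 or mutant HSC 4 (up to 0.123). Rpa3 lost it without any of 10 libraries (up to 0.131), all control libraries but HSC 2 and mutant HSC 1, 2 and 4. Pold3 lost it without any control library but MPP3 4 and without mutant HSC 2 or 4 (up to 0.133), and Pole2 without control HSC 1, 2 or 4, control MPP3 2, 3 or 4 or mutant HSC 2 or 4 (up to 0.138). With the batch as a replicate block, Pold3 (0.0501) and Pole2 (0.0556) were not called. Markers of other cells differed between control MPP3 and control HSC without overlap, and their part in these results was not tested. Besides the early myeloid genes given above, summed CPM in MPP3 against HSC was 385 to 768 against 83.3 to 289 for erythroid, 163 to 385 against 72.4 to 95.1 for B cell and 57.8 to 257 against 6.30 to 14.2 for Fcgr-positive progenitor markers. It was 335 to 500.2 against 64.4 to 94.0 for T and NK cell, 25.7 to 34.0 against 11.7 to 21.6 for macrophage and dendritic cell and 86.9 to 183 against 61.5 to 85.7 for stroma markers, and 157 to 238 against 570 to 783 for megakaryocyte markers. Some of these sums rested mostly on 1 gene. In means of MPP3 against HSC, these included Car1 (413 against 24.3 CPM) for erythroid, Nkg7 (412 against 60.6) for T and NK cell and Pecam1 (131 against 71.2) for stroma. Other genes of these lists were lower in MPP3, such as Epor (10.7 against 24.9 CPM), Klrb1c (7.65 against 14.2) and Cxcl12 (0.221 against 4.38). Cd68 (25.3 against 16.6 CPM) made up most of the macrophage and dendritic cell sum, and Itga2b (175 against 427 CPM) most of the megakaryocyte sum. Neutrophil markers (5.17 to 277 against 19.7 to 64.9 CPM) and the share of mitochondrial counts (1.28 to 1.95% against 1.45 to 2.03%) overlapped.

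In mutant mice, 0 of the 45 genes passed the test between MPP3 and HSC, against 8.36% of genes tested (1186 genes). The median log2 difference was 0.08 with 32 of 45 above 0, and 7 genes had an unadjusted p under 0.05, all higher in MPP3, against 9.48% of genes tested. DESeq2 and limma-voom called 0. The 8 early myeloid markers, by contrast, summed to between 574 and 745 CPM in mutant HSC and to between 4345 and 5677 in mutant MPP3. The largest value was that of Cdc6, 0.41 ± 0.16 (SE, adjusted p = 0.15), with HSC libraries at 132, 96.6, 76.5 and 129 CPM and MPP3 libraries at 152, 131, 138 and 158 CPM. With mutant HSC libraries 1 and 4 left out it was 0.74 (adjusted p = 0.0195), the single call under that setting. Only Rfc2 and Timeless had no overlap between the mutant groups, against 6.14% of genes that were higher without overlap. In the further lists, Pclaf and Nasp, a histone chaperone, rose among 25 genes, Mcmbp among 8 and 0 of the 10 division genes, where control mice had 12, 8 and 8 that rose. Over all genes tested, 6.67% were higher in MPP3 of control mice, beside the 8.36% called in either direction in mutant mice.

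Across the 4 groups, control HSC had the lowest mean CPM for 44 of the 45 genes, the exception being Orc5. Mutant MPP3 had the highest mean for 32 genes, mutant HSC for 12 and control MPP3 for 1. Mutant HSC stood above control MPP3 for 38 genes. For Prim2 the order of means was control HSC (49.0 ± 6.10 CPM), control MPP3 (72.9 ± 8.13), mutant MPP3 (85.9 ± 11.8) and mutant HSC (99.0 ± 15.97, SD, n = 4), and MPP3 was above HSC in 4 of 4 batches of control mice and below it in 4 of 4 batches of mutant mice. For Timeless it was control HSC (108 ± 10.0 CPM), mutant HSC (189 ± 14.5), control MPP3 (210 ± 31.6) and mutant MPP3 (227 ± 18.4), of which the last 3 overlapped their neighbours within the SD. The comparisons share libraries, so these orders are descriptions and not separate evidence.

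**Figure D4:**
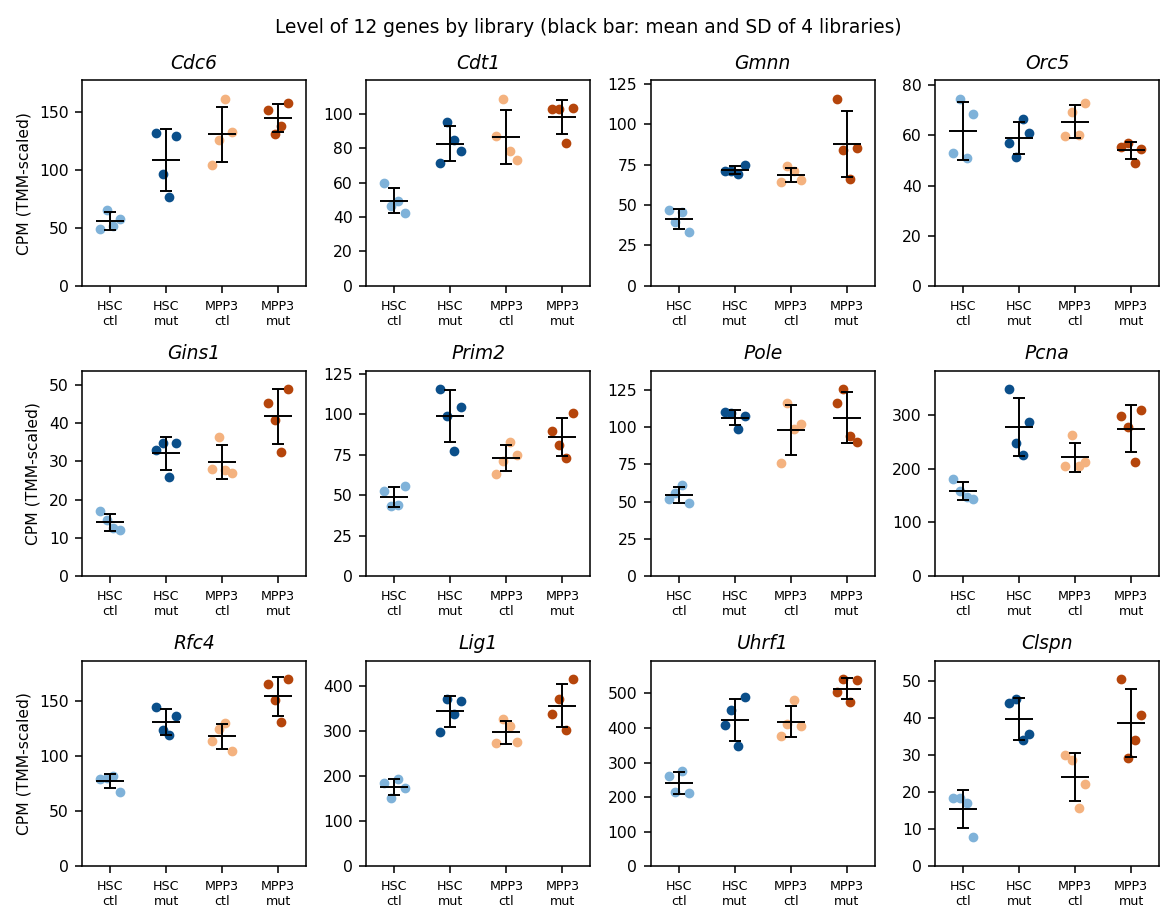
CPM in each library (points) with the mean and SD of its 4 libraries (black bars) for 12 of the genes in the HSC and MPP3 groups of control (ctl) and mutant (mut) mice. Control HSC is lowest for Cdc6, with libraries from 48.8 to 65.4 CPM, while the 4 groups of Orc5 overlap except for the 2 MPP3 groups.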

How the data were processed

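RNA of 16 libraries, 4 per group, was sequenced from low-input cDNA, and per the labels' protocols the library kit was a SMARTer Ultra Low kit. Per the submitters' processing notes the authors used cutadapt 4.0, FastQC, HISAT2 and Salmon with GRCm38 (mm10), while other versions, the transcript set and the strand setting are not stated there. Per the file headers the deposited gene tables hold estimated counts, not normalized, effective lengths in bases, and TPM, which the authors' Salmon run scaled by effective length. Each table had 31716 rows. Of these, 1910 named for single transcripts were left out, and of the 29806 gene rows 79 had no symbol and 42 shared one. Coordinates came from GENCODE M21 (GRCm38) and promoters from RefSeq.

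Estimated counts were rounded and tested with edgeR 4.0.16 (filterByExpr by group, TMM, robust glmQLFit, glmQLFTest) in R 4.3.3, in 1 model with 4 group coefficients, for 5 comparisons, with Benjamini-Hochberg adjustment over 14179 genes and a threshold of 0.05. SE was taken as the size of the log2 fold change over the root of its F statistic, and CPM used TMM-scaled library sizes. Libraries held 33108500 to 41230910 counts. Alternatives were RLE size factors, DESeq2 1.42.0, limma-voom (limma 3.58.1), no filter, the replicate block, the compared groups alone, effective-length offsets and each library left out. One more, without mutant HSC libraries 1 and 4, was chosen after seeing the data.

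Same-numbered libraries share a batch number in the labels, and no closer pairing is stated there. Correlations of their deviations from group means ran from -0.03 to 0.16 over 24 comparisons, of which 17 were highest with the own number. Between HSC and MPP3 of the same genotype they ran from 0.08 to 0.16, each highest with the own number. Across genotypes they ran from -0.03 to 0.10, and some were not. The main tests held no term for the batch, which entered only with the replicate block. That block gave each batch an effect shared by all groups, so matching of HSC and MPP3 within a genotype alone was not modelled.

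The 45 genes, the lists and the tests were chosen with earlier results of these data known. Values by library are given, in each role, for the 2 genes with the smallest and the 1 with the largest adjusted p in mutant against control HSC, for Pcna, Cdt1 and Gmnn, and for the 3 largest and 3 smallest changes in MPP3 against HSC of control mice. Those of Pola1 and Clspn were added after they were seen. A planned search of protein sequences was not analysed here. Of the marker lists, those for Fcgr-positive progenitors (9.37 to 20.6 against 6.30 to 14.2 CPM), B cells (53.1 to 70.3 against 72.4 to 95.1), macrophages and dendritic cells (21.5 to 25.0 against 11.7 to 21.6) and stroma (53.0 to 83.2 against 61.5 to 85.7) are given here for mutant against control HSC.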

Additional observations from a re-analysis of the deposited data

Results flagged for a closer look

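In 10 of the 180 groups of 4 libraries examined (45 genes in 4 groups), 1 library lay far from the other 3, where chance alone gives about 1 group in 20. Values are CPM. Low libraries were Cdt1 in mutant MPP3 replicate 3 at 83.0 (the others at 103), Pold3 in mutant HSC replicate 3 at 97.9 (others 148 to 157), Pole2 in mutant HSC replicate 3 at 25.4 (others 28.3 to 28.4), Rpa2 in mutant HSC replicate 3 at 166 (others 219 to 230) and Clspn in control HSC replicate 4 at 7.99 (others 17.1 to 18.5). High libraries were Gins1 in control MPP3 replicate 2 at 36.4 (others 26.9 to 28.0), Pcna in the same library at 262 (others 204 to 213), Gins2 in control HSC replicate 3 at 106 (others 81.1 to 85.0), Gins4 in mutant MPP3 replicate 4 at 80.4 (others 57.9 to 61.4) and Rfc1 in the same library at 89.9 (others 61.0 to 63.4).

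Prim2, the large primase subunit, had log2 differences of opposite sign between MPP3 and HSC in the 2 genotypes. The difference was 0.57 in control mice (edgeR adjusted p = 0.0102), where the groups did not overlap and MPP3 was thus higher in 4 of 4 batches. In mutant mice it was -0.20, with a 95% interval from -0.49 to 0.09 (adjusted p = 0.469), where MPP3 was lower in 4 of 4 batches but the value did not pass the test. The test of the difference itself gave -0.78 ± 0.20 (SE), with an unadjusted p of 0.000977 and an edgeR adjusted p of 0.354.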

How the results depend on the processing

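Percentages here are the share of all genes tested that were called in the same fits, in either direction. In mutant against control HSC, 34 of the 45 genes were called (7.3%), and 31 to 37 under the 7 planned settings that keep all libraries (4.79 to 11.8%). When 1 library was left out, 25 to 38 were called (4.18 to 9.74%). Without mutant HSC libraries 1 and 4 the count was 17 (1.77%). In control mice the 27 calls of MPP3 against HSC (13.6%) became 24 to 28 under the planned settings (8.98 to 17.2%). With 1 library left out they were 19 to 27 (9.65 to 15.1%). In mutant against control MPP3 the count of 0 became 2 with DESeq2 (2.74%) and 0 to 2 with 1 library left out (0.0069 to 1.44%). For MPP3 against HSC in mutant mice it was 1 without mutant HSC libraries 1 and 4 (5.17%). With any 1 library left out it was 0 there (6.33 to 8.12%). For the difference of the mutant effect it was 5 with DESeq2 (0.543%) and 0 with any 1 library left out (0.0069 to 0.0345%).

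With the replicate block, which groups libraries by batch, the counts were 33 (mutant HSC), 1 (mutant MPP3) and 25 (control mice), and 0 in the other 2 comparisons. The share of all genes tested was 9.83%, 0.578% and 15.8% in the first 3. It was 9.59% for MPP3 against HSC in mutant mice and 0.00705% for the difference of the mutant effect. The block ended the calls of Rfc3 in HSC and of Pold3 and Pole2 in control mice, gave 1 call more, Pola1 in MPP3, and changed no other call in those comparisons. Over all alternatives and called genes, 1331 values kept direction and call, 133 kept direction and lost the call, and 0 changed sign. In HSC 16 of 34 calls stood in each of 24 alternatives, and in control mice 17 of 27. No scaling moved the median of all genes by over 0.1 (log2). Such scalings centre most genes near 0, so a shift shared by most genes could not show there. Depth did not limit these genes, whose lowest count was 298.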

Other observations

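Within groups, the 45 genes moved together from library to library. After the group means were taken off log2 CPM, the correlation of pairs of the 45 genes over the 16 libraries had a median of 0.26 over 990 pairs, with 76.9% above 0, while that of all pairs of genes tested was centred on 0. Libraries share depth, batch and cell makeup, so this is a description of these libraries. The lowest summed level among mutant libraries was that of replicate 3 in each cell type, 5826 CPM in HSC and 6553 CPM in MPP3, while in control animals replicate 3 had the highest summed level in each, 4589 and 6632 CPM.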
